A study of Drosophila melanogaster with 5 samples.

Results

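The cytosolic ribosomal protein genes of Drosophila were examined on 5 expression arrays of eye-antennal imaginal discs and disc tumors. Members were the genes whose current symbol starts with RpL or RpS followed by a digit or by P, and which had a probe set naming exactly 1 gene. This rule found 41 genes, measured by 47 probe sets, among 11981 genes and 18952 probe sets in all. Of 92 genes with such symbols in the RefSeq gene table, the other 51 are not analysed here, among them RpS6, RpS3, RpL5 and RpL11.

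Of the 5 groups, 4 overexpressed Ras: Sras mutant 1 tumors, Sras mutant 2 tumors, scrib mutant tumors, which the design calls its positive control, and Ras tumors, which carried Ras overexpression alone. The fifth was the WT control, discs called 79E control. Third-instar larvae were raised at 25 °C, and GFP-marked clones came from MARCM, a technique that makes labelled mutant clones beside unlabelled tissue. The sources used here give neither the alleles, nor the driver of Ras, nor the number of larvae per sample, nor whether marked cells were separated from their neighbours. Each group had 1 array, so there are no replicates, no test was computed, and each difference below is between single arrays.

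The cytosolic ribosome consists of a large and a small subunit, each an assembly of ribosomal RNA with many proteins that are needed in equal amounts. Genes for these proteins are among the most strongly transcribed in growing cells, and in Drosophila the loss of a single copy of many of them gives the Minute phenotype of slow growth and short bristles. Imaginal disc cells with such a loss are removed by faster neighbours in cell competition, and ribosome production is a classic output of growth signalling in disc tumors.

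The deposited values were on a log2 scale, with array medians between 5.92 and 6.07, and were quantile normalized, which gives each array the same distribution of values. A level below is the log2 reading of a probe set, and a difference is the log2 reading of one array minus that of another. Readings of different probe sets are not comparable as amounts of RNA. As the nearest guide to spread, differences between the Sras arrays had an SD of 0.24 over 7850 genes kept after a filter on dim genes (highest reading at or above 6.36). All 14 measured identity genes of the eye-antennal disc, such as ey and Dll, reached that filter value on each array, with median readings of 10.07 in Sras mutant 1, 10.04 in Sras mutant 2 and 8.08 in scrib mutant tumors, against 8.93 in Ras and 8.74 in WT control. In each Sras array 12 of 14 lay above Ras. The scrib array was split, with 8 of 14 above Ras, 6 at least 2-fold below it, and a median difference of 0.31. Centring on these genes, an alternative scaling used below, thus rests in scrib mutant tumors on genes that moved both ways. Markers of other larval tissues moved with the groups. Mutant values below are given in the order Sras mutant 1, Sras mutant 2, scrib mutant. The 10 kept of 13 measured salivary gland and gut markers had median readings of 6.62, 8.98 and 6.43 in the 3 mutants (Sras 1, Sras 2 and scrib), against 13.93 in Ras and 14.55 in WT control. The 10 kept of 11 muscle markers had medians of 7.45, 7.11 and 7.12 in these mutants, against 10.95 in Ras and 10.79 in WT control. The 6 kept of 7 fat body markers had medians of 8.75, 10.62 and 8.15 in the mutants, against 12.60 in Ras and 12.70 in WT control. These lists were thus higher in Ras and WT control than in each mutant. The 10 kept of 12 neuron and glia markers had medians of 8.39, 8.15 and 7.74 in the mutants, against 9.57 in Ras and 9.34 in WT control. They went both ways, with 4, 3 and 4 of 10 above Ras in the mutants. The 14 hemocyte markers had medians of 8.95, 8.47 and 8.57 in the mutants, against 9.07 in Ras and 9.74 in WT control. Hemocyte markers also separated Ras from WT control, with a median difference of -0.62 and 1 of 14 above 0. Ribosomal proteins are made in all these tissues, so each comparison below is of mixed RNA, and the part of this mixture in each result was not tested. In such bulk samples fewer cells of a type and less RNA per cell cannot be told apart. For 3 housekeeping transcripts, control probe sets at the 3′ end read above those at the 5′ end, on average by 0.93, 0.91 and 0.88 in the mutants, against 1.35 in Ras and 0.95 in WT control, so the Ras array stands apart in this measure of RNA quality. Its part in the comparisons with Ras was not tested.

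The members fell into 3 kinds. Structural proteins of the ribosome in general use, called core genes here, were 30 genes: 19 of the large subunit, including the 3 stalk genes RpLP0, RpLP1 and RpLP2, and 11 of the small subunit. Paralogous copies of core genes were 8 genes, several of which are known mainly from the gonads. The other 3, RpL24-like, RpL7-like and RpLP0-like, resemble yeast factors that bind the immature large subunit, and are called biogenesis-like here.

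Core genes read near the top of the arrays in each sample. Their readings lay between 12.93 and 14.81, and 26 of the 30 read at least 14 on all 5 arrays, while the highest deposited value of an array was between 14.77 and 14.89. After quantile normalization a core gene varied over the 5 arrays by a median of 0.11 log2, from 0.02 for RpS26 to 0.41 for RpL17. As deposited RpS26 varied by 0.12 and RpL17 by 0.37, and the narrowest core gene was RpLP2 at 0.05. Among the 10 other genes whose mean reading was 14 or more, differences of Sras mutant 1 from Ras ran from -0.11 for tsr to 1.24 for CG5953, a gene that read 14.62 in Sras mutant 1 and 13.38 in Ras. CG5953 stood alone: the next highest was Nacalpha at 0.22, and the median of the 10 was 0.17. Its readings of 13.38 in Ras and 12.94 in WT control were also below 14. Whether core probe sets were saturated cannot be read from processed values.

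**Figure D1:**
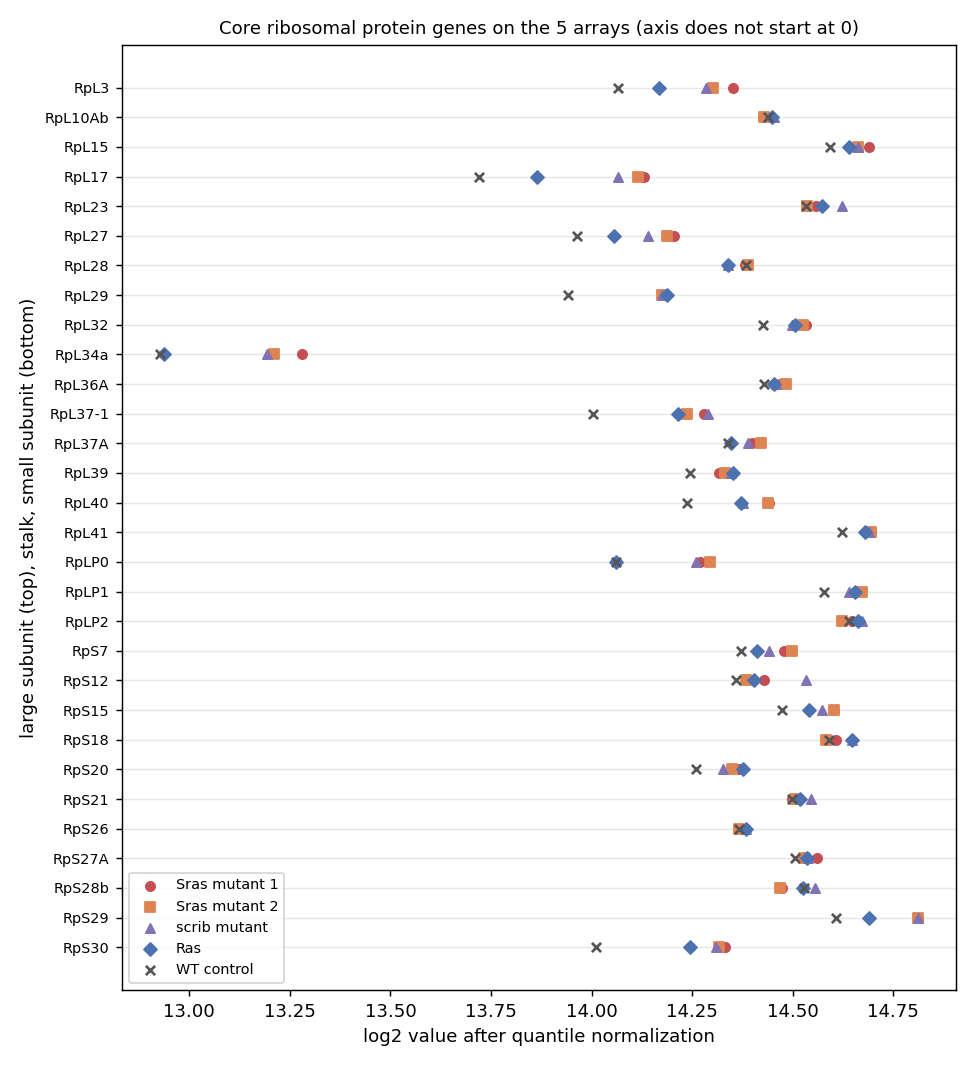
Log2 readings of the 30 core ribosomal protein genes after quantile normalization (horizontal axis, which does not start at 0), with 1 symbol for each of the 5 arrays; genes run down the page from the large subunit through the stalk to the small subunit. WT control (crosses) is lowest for 22 of 30 genes, and RpL34a and RpL17 have the largest gaps between the mutants and the other arrays; after centring on the disc identity genes WT control is no longer lowest.

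Among large subunit genes the widest gaps were in RpL34a and RpL17. RpL34a read 13.28, 13.21 and 13.19 in the mutants, against 12.94 in Ras and 12.93 in WT control. RpL17, which lies at the exit tunnel for the nascent peptide, read 14.13, 14.12 and 14.07 in the mutants, against 13.86 in Ras and 13.72 in WT control. For both genes the mutants stood together above Ras and WT control, with differences from Ras of 0.34, 0.27 and 0.26 for RpL34a and 0.27, 0.25 and 0.20 for RpL17. RpL3, a protein close to the peptidyl transferase centre, read 14.35, 14.30 and 14.28 in the mutants by its main probe set, against 14.17 in Ras and 14.07 in WT control. RpL27 followed with 14.21, 14.19 and 14.14 in the mutants, 14.06 in Ras and 13.96 in WT control. Both kept the order of mutants above Ras above WT control, although after centring on the identity genes each core gene lay below Ras in the Sras arrays.

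In RpL29, RpL37-1 and RpL39 the widest gap lay between WT control and the other arrays. RpL29 read 14.18 in all 3 mutants, against 14.19 in Ras and 13.94 in WT control. RpL37-1 read 14.28, 14.24 and 14.29 in the mutants, 14.22 in Ras and 14.003 in WT control. RpL39, a small protein of the exit tunnel, read 14.32, 14.33 and 14.35 in the mutants, 14.35 in Ras and 14.24 in WT control. In these genes the arrays with Ras overexpression lay close together after quantile normalization and WT control alone was lower. As deposited, RpL37-1 in Sras mutant 1 lay 0.13 above Ras, beside 0.15 for Ras above WT control. The pattern was common under quantile normalization: 21 of 30 core genes had Ras above WT control and each mutant within 0.1 of Ras. RpL40, which is made as a fusion with ubiquitin, read 14.44, 14.44 and 14.38 in the mutants, 14.37 in Ras and 14.24 in WT control.

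RpL32, known as rp49 and widely used as a reference transcript in fly quantitative PCR, read 14.53, 14.53 and 14.497 in the mutants, against 14.51 in Ras and 14.43 in WT control. It varied by 0.11 log2 over the arrays, the same as the median core gene, and by 0.19 as deposited. RpL41, a very short basic peptide, read 14.70, 14.70 and 14.69 in the mutants, 14.68 in Ras and 14.62 in WT control. RpL10Ab, the protein of the L1 stalk, was flatter still, at 14.43, 14.43 and 14.45 in the mutants, 14.45 in Ras and 14.44 in WT control. RpL23, which lies at the face that meets the small subunit, was highest in scrib mutant tumors (14.62), against 14.57 in Ras. RpL28 was 1 of 3 core genes in which Ras did not lie above WT control, with 14.34 in Ras and 14.39 in WT control. The remaining large subunit genes, RpL15, RpL36A and RpL37A, varied by at most 0.09 log2 over the arrays, and by at most 0.14 as deposited.

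The stalk recruits the elongation factors to the ribosome, and its genes differed from one another. RpLP0, the base of the stalk, read 14.27, 14.29 and 14.26 in the mutants, against 14.06 in Ras and 14.06 in WT control. RpLP1 read 14.65, 14.67 and 14.64 in the mutants, 14.65 in Ras and 14.58 in WT control. RpLP2 read 14.65, 14.62 and 14.67 in the mutants, 14.66 in Ras and 14.64 in WT control. The mutants thus lay 0.21, 0.23 and 0.20 above Ras for RpLP0, and between -0.04 and 0.02 from it for RpLP1 and RpLP2, whose readings were the nearer to the top of the scale. Centring an array moves all 3 genes together and leaves these gaps between them as they are.

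Small subunit genes varied somewhat less, with SDs of the differences from Ras of 0.06, 0.06 and 0.05 over 11 genes in the mutants, beside 0.11, 0.10 and 0.08 over the 19 large subunit genes. As deposited the gap was narrower, at 0.05, 0.06 and 0.05 beside 0.08, 0.07 and 0.06. The large subunit genes include RpL34a and RpL17, the core genes with the lowest mean readings. RpS29 was the highest reading of all probe sets on the 3 mutant arrays and so received the same normalized value of 14.81 on each, against 14.69 in Ras and 14.61 in WT control. As deposited it read 14.78, 14.77 and 14.80 in the mutants, 14.68 in Ras and 14.58 in WT control. RpS12, which acts as a sensor in cell competition between cells that differ in ribosomal protein gene dose, read 14.43, 14.39 and 14.53 in the mutants, against 14.40 in Ras and 14.36 in WT control. Its scrib reading was 0.13 above Ras and also above both Sras arrays. RpS30 read 14.33, 14.32 and 14.31 in the mutants, 14.24 in Ras and 14.01 in WT control by its main probe set. RpS21, whose loss gives overgrown blood-forming organs in larvae, read 14.497, 14.51 and 14.55 in the mutants, 14.52 in Ras and 14.497 in WT control. RpS18 and RpS28b had the lowest differences of the core genes in both Sras arrays, at -0.04 and -0.07 from Ras for RpS18 and -0.05 and -0.06 for RpS28b. RpS20 had the lowest core difference in scrib mutant tumors, at -0.05. The other small subunit genes, RpS7, RpS15, RpS26 and RpS27A, varied by at most 0.13 log2 over the arrays, and by at most 0.20 as deposited.

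Set against Ras, core genes differed little in the mutants. The median difference over 30 core genes was 0.03 in Sras mutant 1, 0.02 in Sras mutant 2 and 0.02 in scrib mutant tumors, beside medians over all kept genes of 0.11, 0.08 and 0.12. Differences above 0 were seen for 19 of 30 core genes in Sras mutant 1, where 61.5% of all kept genes lay above 0. The same held for 18 of 30 in Sras mutant 2, beside 58.7% of all kept genes, and for 22 of 30 in scrib mutant tumors, beside 57.5%. In the Sras arrays these shares lie near the background, though only under quantile normalization. When it left out the 66 probe sets of the markers of other larval tissues, 18, 16 and 16 of 30 lay above Ras in the mutants. Beside these stood 60.6%, 57.7% and 56.7% of all genes, so the scrib share was then near the background too. In the values as deposited 27, 25 and 29 of 30 core genes lay above Ras in the mutants, beside 63.0%, 58.7% and 53.5% of all genes, and with array-median centring all 30 did in each. After centring on the disc identity genes all 30 lay below Ras in both Sras arrays and all 30 above it in scrib mutant tumors, so the sign of these small differences follows the scaling. In scrib mutant tumors that centring rests on a split list. Its shift was -0.48 in scrib mutant tumors and -0.07 in Ras, although the median difference of the identity genes between these arrays was 0.31. The core median minus the median of all genes tested ran from -0.09 to -0.01 in the Sras arrays and from -0.11 to -0.004 in scrib mutant tumors over the settings tried, several of which leave it nearly fixed by construction.

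By main probe sets under quantile normalization, no core gene was 1.5-fold apart in any mutant against Ras, in either direction. In Sras mutant 1, 13.5% of all kept genes were at least 1.5-fold higher and 14% at least 1.5-fold lower. In Sras mutant 2 these shares were 14.1% and 14.7%, and in scrib mutant tumors 22.1% and 19.2%. Over all 41 members, 5, 3 and 6 read at least 25% above Ras in the mutants, beside 29.4%, 27.8% and 36.5% of all kept genes, and 1 member read as far above WT control in Ras, beside 9.38%. The spread of differences was likewise narrow, with an SD over core genes of 0.09, 0.09 and 0.07 against Ras in the mutants, beside 0.977, 0.980 and 1.252 over all kept genes. Over 57 other genes with a mean reading of 13 or more the SD was 0.42, 0.45 and 0.65. Of these 57 genes, 8, 7 and 9 were at least 1.5-fold above Ras and 2, 2 and 5 as much below it. The 10 core genes with the highest mean readings differed from Ras by -0.04 to 0.12 in Sras mutant 1, whereas the 2 with the lowest, RpL34a and RpL17, differed by 0.27 to 0.34. Across the 30 core genes the correlation of mean reading with the difference from Ras was -0.73, -0.66 and -0.65 in the mutants, a description of genes that share these arrays. In Ras minus WT control it was -0.17, with an equally narrow SD of 0.07, and the 2 lowest genes differed there by 0.01 and 0.15. The part of the limit at the top of the scale was not tested. Other settings gave wider core differences from Ras. Identity centring gave -0.92 to -0.66 in Sras mutant 1, so each core gene was past 1.5-fold lower there. It gave -0.84 to -0.56 in Sras mutant 2 and 0.40 to 0.60 in scrib mutant tumors. With averaged probe sets the highest core difference was 1.16, 1.35 and 1.505 in the mutants, in RpL3.

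In Ras tumors against WT control the core median difference was 0.05, beside 0.02 over all kept genes, and 27 of 30 core genes lay above 0, beside 54.6% of all kept genes. Quantile normalization without the marker probe sets gave 24 of 30, beside 54.6% of all genes. WT control was the lowest array for 22 of 30 core genes, beside 31.6% of all kept genes, and for 28 of 30 in the values as deposited. After centring on the identity genes all 30 core genes lay below WT control in Ras, with a median of -0.25, beside -0.27 over all genes. The core median minus that of all genes was 0.02 to 0.04 over the settings tried. The largest core differences were in RpL29 (0.25), RpS30 (0.23) and RpL37-1 (0.21), and no core gene was 1.5-fold apart, beside 2.76% of all kept genes at least 1.5-fold higher and 4.27% lower. Hemocyte markers were lower in Ras than in WT control, as given above, with 8 of 14 at least 1.5-fold lower, and their part in this comparison was not tested. The comparisons of mutants with Ras and of Ras with WT control share the Ras array.

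**Figure D2:**
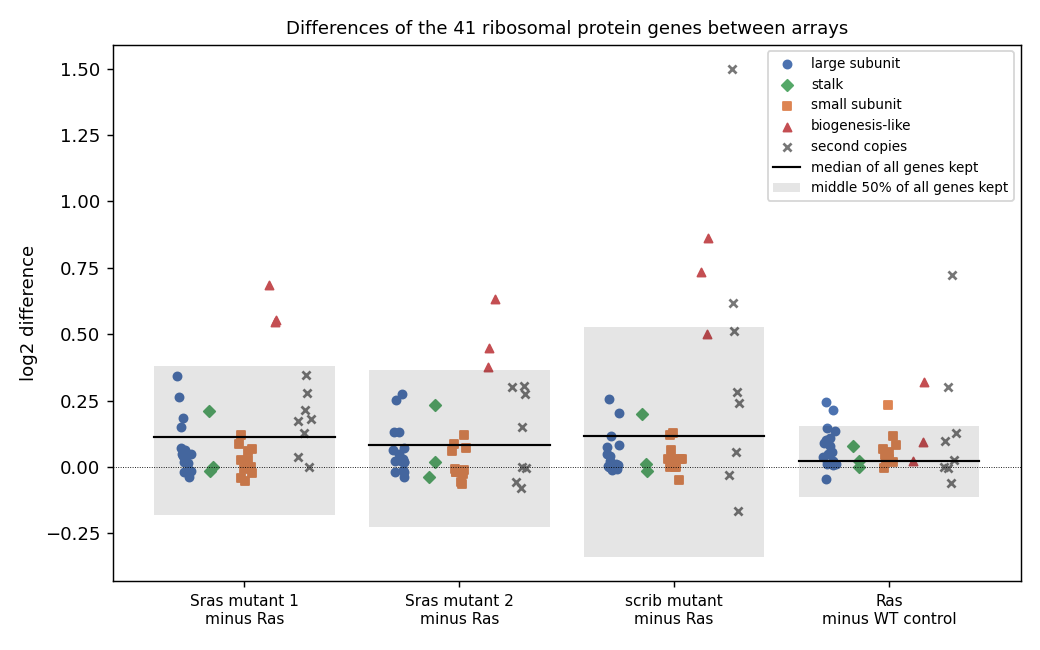
Log2 differences (vertical axis) of the 41 ribosomal protein genes in 4 comparisons (horizontal axis), with 1 point per gene, symbols by kind of gene, a line at the median of all 7850 kept genes and a grey band over their middle 50%. Core genes lie between -0.07 and 0.34 in the 3 comparisons with Ras, the 3 biogenesis-like genes lie above all core genes there, and RpL22-like stands at 1.499 in scrib mutant minus Ras; centring on the identity genes moves all points of a comparison together.

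The biogenesis-like genes behaved differently from the core genes, but they also read lower, while 26 of 30 core genes read at least 14 on all 5 arrays. Among core genes the correlation of mean reading with the difference from Ras was -0.73, -0.66 and -0.65 in the mutants. The part of reading level in the contrast with core genes was not tested. RpL24-like read 12.88, 12.78 and 13.07 in the mutants, against 12.33 in Ras and 12.01 in WT control. RpL7-like read 12.27, 12.22 and 12.45 in the mutants, 11.59 in Ras and 11.57 in WT control. RpLP0-like read 10.87, 10.69 and 10.82 in the mutants, 10.32 in Ras and 10.22 in WT control. In all 3 genes each mutant lay above both Ras and WT control, an order shared by 40.8% of all kept genes and by 15 of 30 core genes. Differences from Ras were 0.54, 0.45 and 0.74 for RpL24-like, 0.69, 0.63 and 0.86 for RpL7-like, and 0.55, 0.38 and 0.50 for RpLP0-like in the same order of mutants. RpL7-like was thus at least 1.5-fold above Ras in all 3 mutants and RpL24-like in scrib mutant tumors alone. After centring on the identity genes all 3 genes lay below Ras in both Sras arrays, where 4.29% and 6.96% of all genes lay above 0. Relative to the core median difference from Ras, the 3 genes stood 0.36 to 0.66 higher in the Sras arrays and 0.47 to 0.84 higher in scrib mutant tumors, and in the deposited values, where centring changes neither, 0.34 to 0.62 and 0.49 to 0.80 higher. Against WT control in Ras tumors, RpL24-like differed by 0.32, RpLP0-like by 0.09 and RpL7-like by 0.02.

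Of the 8 paralogous copies, RpL10Aa, RpS10a, RpS28a and RpS28-like did not reach the filter value on any array and read between 4.79 and 5.80. Their widely used counterparts RpL10Ab and RpS28b were among the core genes described above. These 4 copies varied by 0.08 to 0.41 log2 over the arrays.

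By main probe sets RpL22-like, a paralogue of RpL22 known from the testis germ line, had the largest difference of any member. Dimmer sets of RpL3, described below, differed more. RpL22-like read 7.39 in scrib mutant tumors, against 5.89 in Ras and 5.89 in WT control, and 6.23 and 6.19 in Sras mutants 1 and 2. Only the scrib reading was above the filter value, so the gene was kept through that array alone and its difference from Ras of 1.499 starts from a reading under that value. As deposited it read 7.06 in scrib mutant tumors and 5.91 in Ras, a difference of 1.16. RpL37-2 and RpS19b had smaller scrib differences that depended on normalization. RpL37-2, a copy of RpL37-1, read 6.80 in scrib mutant tumors and 6.18 in Ras, a difference of 0.62 that was 0.26 as deposited. RpS19b, also known from the germ line, read 7.31 in scrib mutant tumors, 6.79 in Ras and 6.49 in WT control, and its difference from Ras of 0.51 was 0.00 as deposited. Few germ line markers were detected, with 2, 2 and 3 of 14 measured at or above the filter value in the mutants, against 0 in Ras and 0 in WT control. The germ line gene krimp read 8.17 in scrib mutant tumors and 5.54 in Ras. AGO3 read 7.06 in scrib mutant tumors and 4.67 in Ras, while vas, a defining germ line marker, read 4.46 in scrib mutant tumors and 4.55 in Ras. The part of germ line RNA in the copies' readings was not tested.

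RpS5b, a copy of RpS5a known mainly from the ovary, showed yet another pattern. It read 8.91 and 8.58 in Sras mutants 1 and 2, 8.47 in scrib mutant tumors and 8.63 in Ras, against 7.91 in WT control. All 4 arrays with Ras overexpression lay above WT control, by 1.001 and 0.67 in Sras mutants 1 and 2, 0.55 in scrib mutant tumors and 0.72 in Ras. With identity centring the differences from WT control became -0.22 and -0.46 in Sras mutants 1 and 2, 0.51 in scrib mutant tumors and 0.36 in Ras, so the pattern did not hold for the Sras arrays. By main probe sets RpS5b also gave the widest gap between the Sras arrays, with Sras mutant 2 lower than Sras mutant 1 by a difference of -0.34. A dimmer RpL3 set differed there by 0.43.

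Members with more than 1 probe set were RpL3, RpS30, RpS29 and RpS7, and for RpL3 and RpS30 the sets disagreed. The main set of RpL3 differed from Ras by 0.18, 0.13 and 0.12 in the mutants. Another set annotated to RpL3 read 10.35, 10.55 and 11.02 in the mutants, against 8.78 in Ras and 9.28 in WT control. The third set read 7.38, 7.81 and 7.81 in the mutants, 5.66 in Ras and 6.16 in WT control. Both of these dimmer sets were therefore higher in each mutant than in Ras and WT control, with differences from Ras of 1.57, 1.77 and 2.24 for the brighter of them and 1.73, 2.15 and 2.15 for the other, and both were lower in Ras than in WT control by a difference of -0.50. In Ras against WT control the main set went the other way, at 0.10. The differences of both dimmer sets from Ras in the mutants were above 0 under each scaling tried.

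The dimmer set of RpS30 read 8.40, 8.22 and 8.62 in the mutants, against 7.42 in Ras and 7.67 in WT control. Its differences from Ras of 0.98, 0.80 and 1.201 compare with 0.09, 0.07 and 0.06 for the main set, and in both Sras arrays they were just below 0 after centring on the identity genes. The other sets of RpS29 and RpS7 did not show this. A further set of RpS29 read between 14.29 and 14.47, with -0.02, -0.04 and 0.01 from Ras, and the remaining sets of RpS29 and RpS7 read at most 6.08, under the filter value. The sources used here do not say which part of a transcript each set covers, so whether dimmer sets measure the same transcript as the main sets cannot be told. With the mean of all its sets, RpL3 differed from Ras by 1.16, 1.35 and 1.505.

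**Figure D3:**
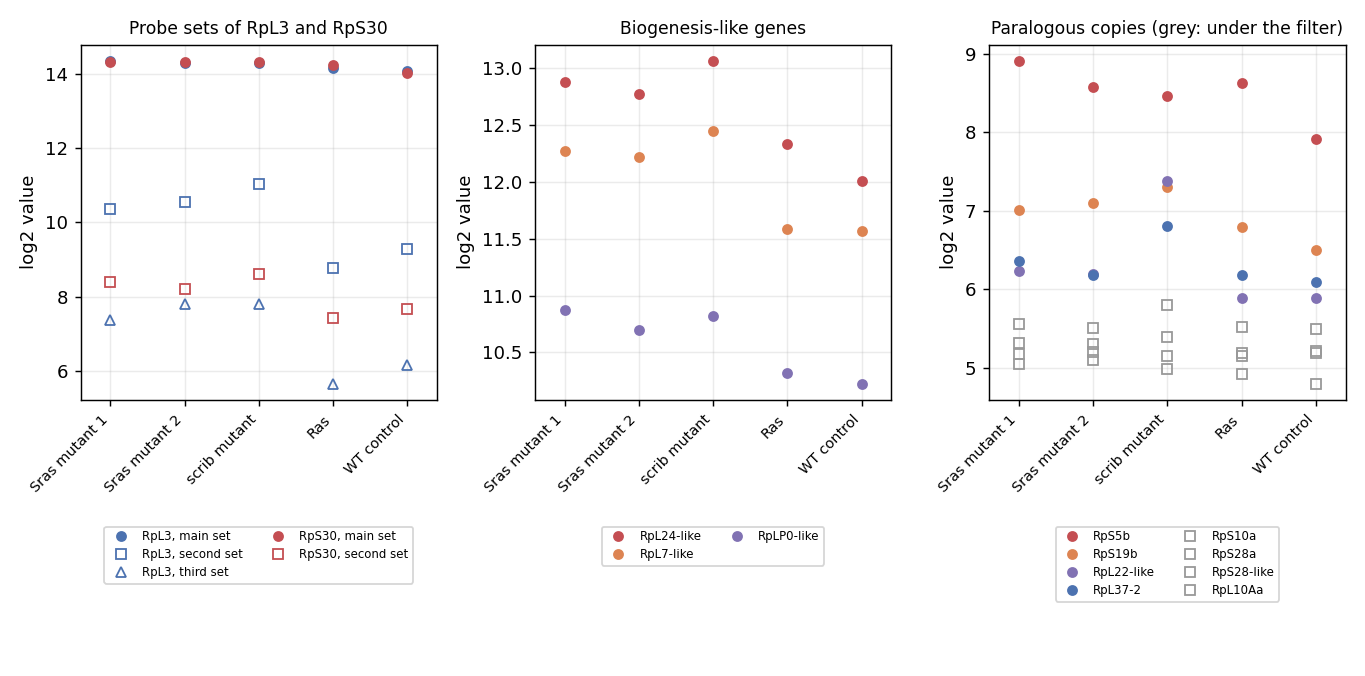
Log2 readings (vertical axes) on the 5 arrays (horizontal axes) for the probe sets of RpL3 and RpS30 (left), the biogenesis-like genes (middle) and the paralogous copies (right, grey squares for those under the filter value of 6.36). The filled main sets of RpL3 and RpS30 stay near 14 while their open dimmer sets are higher in the 3 mutants than in Ras and WT control, and RpL22-like is high in scrib mutant tumors alone, at 7.39; under centring on the identity genes the RpS30 dimmer set lies just below Ras in the Sras arrays.

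Other genes of the translation pathway gave a setting for these values, in lists chosen with earlier results of these data known. Ribosome biogenesis genes, whose products process ribosomal RNA and assemble subunits, had 28 of 33 genes measured and kept. Their median differences from Ras were 0.53 in Sras mutant 1, 0.51 in Sras mutant 2 and 0.60 in scrib mutant tumors, and 28, 27 and 27 of 28 genes lay above 0, beside 61.5%, 58.7% and 57.5% of all kept genes. At least 1.5-fold higher than Ras were 11 of 28 in Sras mutant 1, 8 in Sras mutant 2 and 16 in scrib mutant tumors, beside 13.5%, 14.1% and 22.1% of all kept genes, and 0 of 28 were as much lower in any of them. eIF6, which keeps immature large subunits from joining, was highest in both Sras arrays, with differences from Ras of 0.94, 0.88 and 0.93 in the mutants. RIOK1, a kinase of late small subunit maturation, was highest in scrib mutant tumors, with 0.65, 0.55 and 1.22, and mbm stood at 0.89, 0.87 and 1.15. The lowest was Nop17l, with 0.05, -0.02 and -0.01. In Ras against WT control the list median was 0.00. With arrays centred on disc identity genes, the medians from Ras became -0.33, -0.28 and 1.004, so the direction turned in the Sras arrays, beside medians over the same kept genes of -0.78, -0.71 and 0.45.

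Initiation factors had a median difference from Ras of 0.27, 0.28 and 0.33 over 23 genes in the mutants. At least 1.5-fold higher were 4, 3 and 4 of 23, beside 13.5%, 14.1% and 22.1% of all kept genes, so this count does not stand out from the background. However, 23, 23 and 21 of 23 lay above Ras, beside 61.5%, 58.7% and 57.5% of all kept genes. At least 1.5-fold lower were 0 of 23 in each mutant, beside 14%, 14.7% and 19.2%. With identity centring the medians of initiation factors became -0.66, -0.55 and 0.70. Besides eIF6, which is in both lists, eIF3f1 of the eIF3 complex was high, at 0.65, 0.78 and 0.66, while pAbp, the poly(A)-binding protein gene, lay at 0.02, 0.01 and 0.06. Elongation and termination factors had medians of 0.18, 0.19 and 0.08 over 7 genes, with Tctp at 0.32, 0.28 and 0.23. The exception was eEF1alpha2, the elongation factor form of muscle and neurons, which read 12.03, 11.82 and 9.70 in the mutants, against 13.15 in Ras and 12.99 in WT control. Muscle markers had median differences from Ras of -3.55, -3.96 and -3.82 in the mutants, and neuron and glia markers of -0.40, -0.54 and -1.35. The median of the neuron and glia markers was, like eEF1alpha2, lowest in scrib mutant tumors, but 4, 3 and 4 of 10 lay above Ras in the mutants. The part of either tissue in the eEF1alpha2 readings was not tested.

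Genes of RNA polymerases I and III and of growth control had medians of 0.26, 0.21 and 0.50 from Ras over 18 genes, beside 0.11, 0.08 and 0.12 over all kept genes. The large subunits of polymerase I, which transcribes ribosomal RNA, were high in each mutant, with 0.82, 0.78 and 0.80 for Polr1A and 0.79, 0.80 and 0.87 for Polr1B, and TAF1B reached 1.12 in scrib mutant tumors. Maf1, a repressor of polymerase III, lay at -0.15, -0.19 and -0.43. The list of factors tied to ribosomal protein gene promoters had medians of 0.18, 0.04 and -0.03 from Ras over 9 kept genes. M1BP lay at 0.06, -0.06 and -0.04 and Dref at 0.11, 0.01 and 0.06. The highest of the list, wge, lay at 0.54, 0.52 and 0.59, and Phf5a, the lowest in each mutant, at -0.09, -0.25 and -0.18. The 69 mitochondrial ribosomal protein genes had medians of 0.06, -0.09 and 0.29 from Ras, with 0, 0 and 9 of 69 at least 1.5-fold higher, shares below the 13.5%, 14.1% and 22.1% of all kept genes. Above Ras by any amount lay 39, 22 and 61 of 69, beside 61.5%, 58.7% and 57.5% of all kept genes. In scrib mutant tumors mRpL28 (1.499) and mRpS11 (0.74) were highest, and mRpS21 was lowest in both Sras arrays (-0.44 and -0.68). The values of this paragraph also depend on the scaling. Identity centring subtracts 0.83 in Sras mutant 1, 0.72 in Sras mutant 2, -0.48 in scrib mutant tumors and -0.07 in Ras. It thus lowers the Sras differences from Ras and raises the scrib ones.

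**Figure D4:**
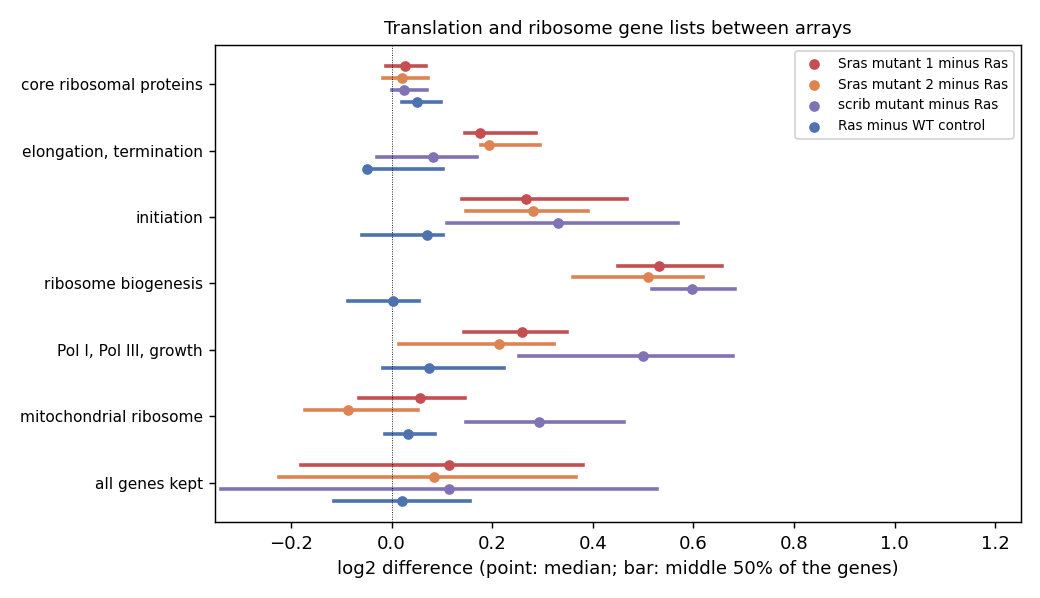
Median log2 difference (points) and middle 50% of the genes (bars) on the horizontal axis for the 30 core ribosomal protein genes, 5 other lists and all kept genes (vertical axis), in 4 comparisons. Core genes have medians of 0.02 to 0.05 with short bars, and ribosome biogenesis genes have medians of 0.51 to 0.60 in the 3 comparisons with Ras and 0.00 in Ras minus WT control; a centring of the arrays moves all lists of a comparison by the same amount.

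The mutants were also set against each other and against WT control, without the Ras array. Against WT control the core median was 0.09 in Sras mutant 1, 0.09 in Sras mutant 2 and 0.07 in scrib mutant tumors, with 26, 25 and 29 of 30 genes above 0, beside 61.4%, 59.4% and 57.4% of all kept genes. The highest core differences were 0.41 and 0.40 for RpL17 in Sras mutants 1 and 2 and 0.35 in scrib mutant tumors. The biogenesis-like genes had medians of 0.71, 0.66 and 0.88 against WT control. Under identity centring the core medians against WT control were -1.097, -0.989 and 0.21 and the biogenesis-like medians -0.49, -0.46 and 0.96, so both turned in the Sras arrays. Among core genes Sras mutant 2 and Sras mutant 1 were the closest pair of those compared, with an SD of differences of 0.02 and a range of -0.07 to 0.02, and 9 of 30 lay above 0, beside 41.1% of all kept genes. Against scrib mutant tumors the core medians were 0.01 in both Sras arrays, with RpS12 at -0.10 in Sras mutant 1 and -0.15 in Sras mutant 2. The core medians against scrib mutant tumors became -1.27 and -1.196 after centring on the identity genes, and -0.03 and -0.07 with array-median centring. Sras mutant 2 minus Sras mutant 1 then lay above 0 for all 30 core genes with identity centring, with a median of 0.10, and for 5 of 30 with array-median centring. RpL22-like had the widest gap between mutants, at -1.15 and -1.196 from scrib mutant tumors in Sras mutants 1 and 2.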

How the data were processed

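The authors deposited 1 table of log2 values for 18952 probe sets on 5 arrays, 1 per group; the sources used here do not give background correction, normalization or probe summary, and the values themselves (3.32 to 14.89) showed the scale. Per the labels, total RNA was labelled with biotin. The number of arrays limits the precision. Deposited array medians differed by 0.15, over a limit of 0.1, so the arrays were quantile normalized over all probe sets. A platform annotation gave 13646 probe sets 1 symbol and 402 several; 13543 had a gene identifier in the RefSeq table of Release 6, through which symbols were updated. No coordinates or sequences were used. A gene took its brightest probe set by mean, and 7850 of 11981 genes had a reading at or above the 40th percentile (6.36). Of the 41 members 37 passed. Probe sets naming a member together with another gene (3) were left out. Of the 47 member probe sets, 14 have names ending in _s_at, which marks sets that can match more than 1 transcript.

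Differences were taken between arrays. The members, the lists and the rules were chosen with earlier results of these data known. Named genes were stalk genes, RpS12, RpL41, the copies and -like genes, the 3 highest and 3 lowest members against Ras and in Ras against WT control, the extremes between the Sras arrays, extremes of each list, and some regulators; other members were named after their values were seen. Alternatives were the values as deposited, centring on array medians or on 14 identity genes (median of gene-centred values), quantile normalization without 66 marker probe sets, no filter or a stricter one (gene mean at the 50th percentile or higher), averaged probe sets, core genes alone, and a threshold of 25% above or below. Promoter motifs were planned and not run, since no promoter sequences were used here. The steps were tested on simulated data. Python 3.11.15, NumPy 2.4.6, pandas 2.3.3 and matplotlib 3.10.9 were used.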

Additional observations from a re-analysis of the deposited data

How the results depend on the processing

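With 1 array per group, alternatives compare the same arrays processed differently. Of the recomputed medians, SDs and counts of members, 115 stayed near the main value and 21 moved. Near means within 0.24 log2, the SD between the Sras arrays over all genes, which is wider than most core differences, or within 1.5 times for a count. Of the values of single genes and probe sets, 225 stayed near, 59 moved and 4 turned sign. Centring on the disc identity genes moved the median of all 41 members to -0.82 in Sras mutant 1 minus Ras, -0.74 in Sras mutant 2 minus Ras, 0.46 in scrib mutant minus Ras and -0.25 in Ras minus WT control. The median of all genes moved likewise, to -0.79, -0.72, 0.46 and -0.27. Under that centring, members at least 1.5-fold lower numbered 37 and 35 in Sras mutants 1 and 2, and members at least 1.5-fold higher numbered 0 in both, 9 in scrib mutant tumors and 0 in Ras minus WT control. RpL7-like then lay at -0.21 and -0.18 from Ras in Sras mutants 1 and 2, and the dimmer RpS30 set at -0.016 and -0.10. Members at least 1.5-fold higher numbered 1 in Sras mutant 1, 1 in Sras mutant 2, 4 in scrib mutant tumors and 1 in Ras minus WT control under the main setting. In Sras mutant 1 this count was 2 with values as deposited, with centring on array medians and with the mean of probe sets, and 5 at a threshold of 25%. In Sras mutant 2 it was 2 with the mean of probe sets and 3 at 25%. In scrib mutant tumors it was 3 as deposited, 6 with the mean of probe sets, 6 at 25%, and 2 under the stricter filter, where fewer members are tested. With core genes alone it was 0 in all 4 comparisons. The number of arrays limits precision, and saturation of core probe sets was not tested. No paired analysis was possible because each group has 1 array.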

Other observations

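Genes of TOR signalling, which acts upstream of ribosome production, had medians of 0.10, 0.20 and 0.15 from Ras over 13 kept genes, beside 0.11, 0.08 and 0.12 over all kept genes, with members on both sides. Identity centring turned these medians to -0.74 and -0.54 in Sras mutants 1 and 2 and gave 0.4956 in scrib mutant tumors. S6k, the kinase that phosphorylates the ribosomal protein S6, read 9.84, 10.13 and 10.74 in the mutants (Sras 1, Sras 2, scrib), against 9.21 in Ras and 9.37 in WT control. REPTOR, a transcription factor held in check by TORC1, read 8.44, 8.46 and 9.81 in the mutants, 7.96 in Ras and 7.24 in WT control. Lower than Ras were Sesn, a stress-induced inhibitor of TORC1, at -0.70, -0.70 and -1.62 in the mutants, and REPTOR-BP, the partner of REPTOR, at -0.46 and -0.80 in Sras mutants 1 and 2, although 0.49 in scrib mutant tumors. Pdk1 was at -0.87 in scrib mutant tumors. In a list of genes that respond when ribosomal proteins are short, Irbp18, the partner of the transcription factor Xrp1 in the response to ribosomal protein loss, read 10.58, 10.72 and 11.40 in the mutants, 9.84 in Ras and 9.49 in WT control. GstE6, a glutathione transferase of the same list, read 10.73, 10.72 and 11.61 in the mutants, 8.47 in Ras and 8.33 in WT control. Xrp1 itself was not analysed here. Of 11 kept genes of this list, 5, 5 and 7 were at least 1.5-fold above Ras in the mutants, beside 13.5%, 14.1% and 22.1% of all kept genes. None of the 11 (0) was as much below Ras, beside 14%, 14.7% and 19.2%. After centring on the disc identity genes 2, 2 and 9 were at least 1.5-fold above Ras and 4, 1 and 0 as much below it, with medians of -0.55, -0.32 and 1.05.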
